A study of Mus musculus with 3 samples.

Results

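The 8 genes described here, Scd1, Scd2, Fads1, Fads2, Elovl3, Elovl5, Elovl6 and Hsd17b12, encode the enzymes that place double bonds into fatty acids and lengthen them. They were taken by name from the 25154 genes that the count tables of this brown adipose tissue (BAT) study list, and all 8 are listed in each of the 3 tables. Scd1 and Scd2 encode stearoyl-CoA desaturases, which turn saturated palmitate and stearate into the monounsaturated fatty acids of stored triglyceride. Fads1 and Fads2 encode the front-end desaturases that make polyunsaturated fatty acids. Elovl3, Elovl5 and Elovl6 encode condensing enzymes of chain elongation, and Hsd17b12 encodes the reductase that carries out the next step of the same cycle. In fat cells, palmitate from de novo lipogenesis passes through Elovl6 and Scd1 to oleate, and Elovl3 is best known as a gene that brown fat switches on in the cold.

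Interscapular BAT was digested, and nuclei of the fraction that floats, adipocytes with fragments of blood vessels, were sorted by a DNA dye and sequenced as single-nucleus RNA libraries on the BD Rhapsody platform. All mice were adult, of strain C57Bl6 and of genotype WT, and no allele or transgene differed between groups. The groups were non-treatment (called untreated here), sham operation, and denervation, a unilateral cutting of the intercostal nerves that supply BAT, with harvest days later. The paper states that only male mice were used. Its legend for the denervated nuclei also lists tamoxifen, which its legend for the untreated nuclei does not. Whether the mice of the sham library received tamoxifen is not given in the sources used here. The paper uses sham operation both for the contralateral lobe of denervated mice and for a separate sham-operated group. Which of these the sham library holds is not given either. Each group is 1 library pooled from several mice, so no difference between groups has a replicate check, no p-value is given, and every interval below is an exact 95% interval that covers counting error only. The time of harvest after the sham operation is not given in the sources used here. The libraries were made from nuclei, and their counts also hold RNA from outside the nucleus, such as mitochondrial transcripts.

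The untreated, sham and denervated libraries held 14971579, 14725864 and 9420030 unique molecular identifiers (UMIs), and 10236, 11603 and 9657 nuclei remained after filtering, with a median of 1006, 750 and 698 UMIs each. Clusters, made without the 8 genes and the lists of related genes below, were named from marker genes: 4712, 3405 and 5256 nuclei were brown adipocyte-like (BAs), 133, 1101 and 909 white adipocyte-like (WAs), 4611, 5148 and 2088 endothelial-like (ECs) and 585, 1272 and 785 pericyte-like (PCs). Levels are given as CPM, the UMIs of a gene per 1000000 UMIs of all nuclei of its class. The thermogenic gene Ucp1, which no list used, stood at 344.5, 411 and 308 CPM in BAs, and summed endothelial markers there at 357, 375 and 311 CPM against 14037, 11248 and 11341 in ECs. The sham library stood apart. Its BAs had 6.45% mitochondrial UMIs against 3.15% in untreated and 1.84% in denervated BAs, a summed heat shock list of 4612 CPM against 2835 and 3355, and a summed immediate early list of 1647 CPM against 642 and 821. Between sham and untreated BAs, 2 of 7 heat shock genes (Dnajb1 and Hspb1) and 5 of 7 compared immediate early genes (Fos, Fosb, Junb, Egr1 and Atf3) were at least 2-fold higher, against 7.22% of 4847 genes compared. Between denervated and untreated BAs these were 0 of 7 and 1 of 4 (Junb), against 1.13% of 4528 genes. The sham table is also the 1 without a pipeline header. The part of these differences in the results on the sham library was not tested, and each comparison is therefore given against both controls. Pairs of libraries shared 251 to 278 cell barcodes, which was not set against the number shared by chance. An alternative below leaves them out.

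How far reads can separate these genes depends on how alike they are. Scd1 lies on the minus strand of chromosome 19 (GRCm38, chr19:44394455-44407879) and Scd2 on the plus strand 87590 bases away (chr19:44293674-44306864). Their coding sequences matched at 90.7% of 1064 aligned bases, and the longest stretch the transcripts share exactly was 147 bases, in the coding sequence and split over 2 exons. Scd3 was closer still to Scd1, with 91.5% of 1065 aligned bases and a shared stretch of 185 bases, and shared 125 bases with Scd2. The stretch of Scd1 and Scd2 covers chr19:44401693-44401805 and chr19:44400341-44400374 in Scd1, and in Scd2 chr19:44299702-44299814 and chr19:44301212-44301245. The stretches are printed from the GENCODE vM21 transcripts because a read inside one could not be assigned to either gene of its pair. Capitals mark the shared stretch, and the 20 lower-case bases on each side show where the pair separates:
Scd1: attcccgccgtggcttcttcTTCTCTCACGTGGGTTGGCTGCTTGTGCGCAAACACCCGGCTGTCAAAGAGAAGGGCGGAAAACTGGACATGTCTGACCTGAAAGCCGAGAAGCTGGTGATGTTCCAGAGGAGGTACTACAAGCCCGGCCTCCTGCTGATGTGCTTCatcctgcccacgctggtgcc
Scd2: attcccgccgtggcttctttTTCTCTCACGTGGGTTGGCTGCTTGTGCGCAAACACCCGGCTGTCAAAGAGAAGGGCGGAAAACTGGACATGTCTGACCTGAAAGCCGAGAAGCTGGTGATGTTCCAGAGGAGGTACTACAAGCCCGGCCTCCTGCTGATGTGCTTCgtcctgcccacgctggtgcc
Fads1: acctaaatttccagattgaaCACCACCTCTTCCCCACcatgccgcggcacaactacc
Fads2: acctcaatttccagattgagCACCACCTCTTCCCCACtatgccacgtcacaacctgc

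The shared stretch of Scd1 and Scd2 ends 3863 and 4063 bases before the 3′ end of the compared transcripts, and how the authors' pipeline assigned reads inside it is not given in the sources used here. Fads1 (plus strand, chr19:10182888-10196877) and Fads2 (minus strand, chr19:10062765-10101746) also neighbour each other, 81141 bases apart, but they matched at only 68.3% of aligned coding bases and shared at most 17 bases in a row, also across an exon junction. Elovl3 is on the same chromosome (chr19:46131897-46135694, plus strand), and 10 of its exon bases are also exon of Pitx3 on the other strand. Scd2 shares 61 exon bases with Mir5114 on its own strand, and Elovl6 shares 34 with Gm35986 on the other strand. Elovl5 is on chr9:77917364-77984519 (plus strand), Elovl6 on chr3:129532355-129638495 (plus strand) and Hsd17b12 on chr2:94032689-94157964 (minus strand). Because nuclei hold unspliced RNA, and introns of these genes sum to between 1823 bases in Elovl3 and 122869 bases in Hsd17b12, levels are compared between nuclei for 1 gene at a time, and not between genes.

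Elovl5, Elovl6 and Hsd17b12, the 3 elongation genes with substantial counts, were all lowest in BAs of the sham library. The 250 bases before their RefSeq transcription starts are shown (GRCm38.p6, coding strand, chr9:77917115-77917364, chr3:129532136-129532385 and chr2:94157910-94158159). RefSeq promoter windows matched 4 of the 8 genes. Capitals mark matches, on either strand, to CCAAT, to the GC box GGGCGG, to the E-box CACGTG and to TCACNCCAC, the sterol response element of the LDL receptor gene, none of which overlap in these windows:
Elovl5: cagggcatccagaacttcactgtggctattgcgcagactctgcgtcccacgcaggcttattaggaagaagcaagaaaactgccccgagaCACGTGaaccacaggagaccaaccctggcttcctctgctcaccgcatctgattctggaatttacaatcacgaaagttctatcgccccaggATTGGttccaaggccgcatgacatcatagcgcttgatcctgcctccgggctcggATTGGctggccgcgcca
Elovl6: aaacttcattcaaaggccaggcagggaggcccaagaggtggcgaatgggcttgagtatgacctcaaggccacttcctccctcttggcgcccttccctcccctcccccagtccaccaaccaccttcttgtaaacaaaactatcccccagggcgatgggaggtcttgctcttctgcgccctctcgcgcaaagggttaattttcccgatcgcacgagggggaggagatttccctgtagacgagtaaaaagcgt
Hsd17b12: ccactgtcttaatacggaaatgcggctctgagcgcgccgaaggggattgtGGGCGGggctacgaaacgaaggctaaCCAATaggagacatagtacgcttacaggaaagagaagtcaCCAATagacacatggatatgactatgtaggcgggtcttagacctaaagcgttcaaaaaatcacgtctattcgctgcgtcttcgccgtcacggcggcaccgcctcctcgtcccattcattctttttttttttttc

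Elovl5 held 2 CCAAT matches and 1 CACGTG match, Hsd17b12 held 2 CCAAT matches and 1 GGGCGG match, and Elovl6 held none of the 4 motifs. Of 32841 windows of the same length, 33.9% held CCAAT, 32.7% GGGCGG, 6.02% CACGTG and 1.05% TCACNCCAC. The matches describe letters and not binding.

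Scd1 had similar levels in BAs of the untreated and denervated libraries and a far lower level in sham BAs. BAs carried 14038 Scd1 CPM in the untreated library (interval 13959 to 14117), 3955 in the sham library (3900 to 4010) and 15401 in the denervated library (15297 to 15507). The 3 intervals do not overlap. Sham BAs were 3.55-fold below untreated BAs (log2 ratio -1.83, interval -1.85 to -1.81), and denervated BAs were 3.90-fold above sham BAs (log2 1.96, 1.94 to 1.98) but only 1.10-fold above untreated BAs (log2 0.13, 0.12 to 0.15). The denervated level thus lay far above 1 control and near the other. The low sham level was not particular to BAs. Sham over untreated was log2 -1.41 in ECs, -1.76 in PCs and -2.05 in immune-like nuclei. Denervated over sham was log2 1.96, 2.85 and 2.69 in these classes, and denervated over untreated 0.55, 1.09 and 0.65. The part of adipocyte RNA in these classes was not tested. When every nucleus was thinned to 500 UMIs, the median BA held 6 Scd1 UMIs in the untreated, 1 in the sham and 6 in the denervated library. No Scd1 UMI was drawn in 2.36% of 4572 untreated BAs, 24.7% of 3275 sham BAs and 3.05% of 4718 denervated BAs, with 140, 130 and 538 shallower BAs left out. The upper end was lower in the sham library too, where the 95th percentile was 6 UMIs, against 15 in the untreated and 17 in the denervated library. The variance over the mean was 3.75 in denervated, 2.77 in untreated and 2.02 in sham BAs. The mean had the same order, highest in denervated and lowest in sham BAs. This ratio can rise with the mean where nuclei differ, so it does not rank the libraries by the spread between their nuclei.

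**Figure D1:**
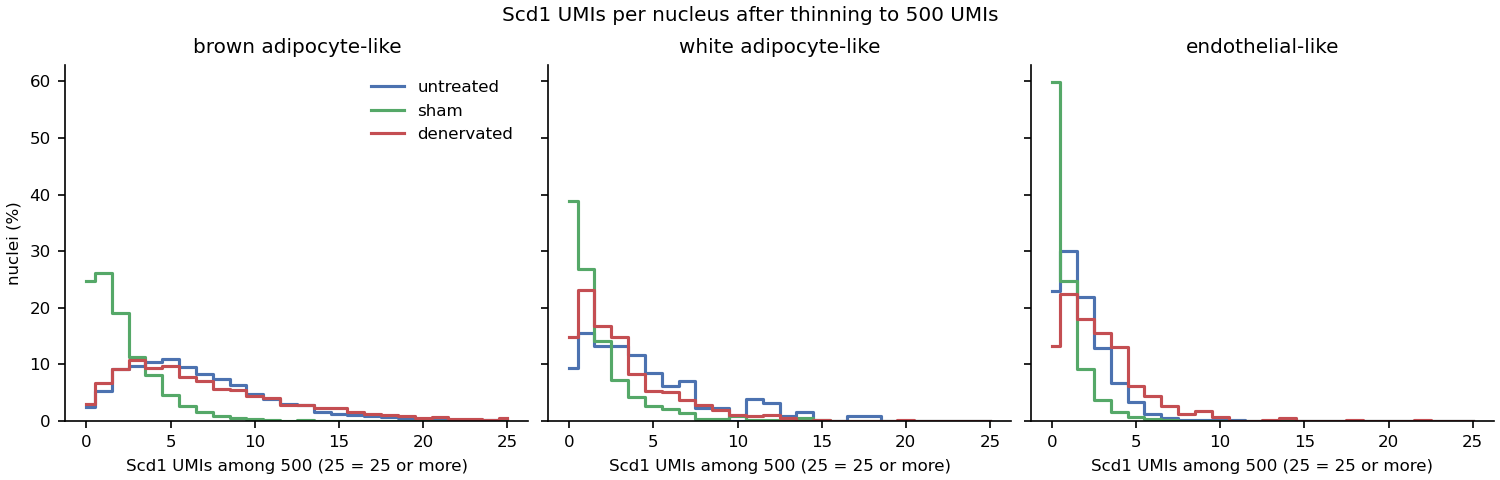
Share of nuclei (y axis, percent) by the number of Scd1 UMIs among 500 drawn per nucleus (x axis, the last step holds 25 or more), for BAs, WAs and ECs, with 1 line per library. In BAs the sham line peaks at 0 to 1 UMI, with 24.7% of nuclei at 0, while the untreated and denervated lines lie close together and both have a median of 6.

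Scd2, the other stearoyl-CoA desaturase, was also lowest in sham BAs. BAs held 660.0 Scd2 CPM in the untreated library (643 to 677), 91.3 in the sham library (83.2 to 100) and 488 in the denervated library (469 to 507). Sham BAs were thus 7.23-fold below untreated (log2 -2.85, -2.99 to -2.72), denervated BAs 5.34-fold above sham (log2 2.42, 2.27 to 2.56), and denervated BAs 1.35-fold below untreated (log2 -0.44, -0.50 to -0.37). As a mean over nuclei of log2 counts per 10000 plus 1 (the mean of logs), the difference of denervated from sham BAs was 0.83. Because of the added 1 and the nuclei without a UMI, a difference of 1 on that scale is not a 2-fold change in level. The ratio of Scd1 to Scd2 UMIs in BAs was 21.3 in the untreated (20.7 to 21.9), 43.3 in the sham (39.5 to 47.6) and 31.6 in the denervated library (30.4 to 32.9), intervals that do not overlap. After thinning, 23.7% of untreated, 3.21% of sham and 18.2% of denervated BAs had a Scd2 UMI.

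Elovl5, Elovl6 and Hsd17b12 were also lowest in sham BAs, and Elovl5 and Elovl6 lay further below untreated in denervated BAs than Scd2 did. Elovl6, which extends palmitate to stearate, stood at 1364 CPM in untreated BAs (1340 to 1389), 769.8 in sham BAs (746 to 794) and 904.5 in denervated BAs (879 to 930). Denervated BAs therefore lay 1.51-fold below untreated (log2 -0.59, -0.64 to -0.54) and 1.18-fold above sham (log2 0.23, 0.17 to 0.29), and on the mean of logs the difference from sham was -0.0024, so Elovl6 of denervated BAs was below untreated on both scales and above sham on CPM alone. Elovl5, which extends polyunsaturated fatty acids, gave 478, 182 and 296 CPM in untreated, sham and denervated BAs. The denervated value was 1.62-fold below untreated (log2 -0.69, -0.78 to -0.61) and 1.62-fold above sham (log2 0.70, 0.58 to 0.82). Hsd17b12 gave 504, 253 and 440.2 CPM, which put sham BAs 1.99-fold below untreated (log2 -0.996, -1.09 to -0.91), just short of 2-fold. On CPM these 3 genes had the order untreated, denervated, sham, with neighbouring intervals apart. The ratio of Scd1 to Elovl6 UMIs was 10.3 in untreated (10.1 to 10.5), 5.14 in sham (4.96 to 5.32) and 17.0 in denervated BAs (16.5 to 17.5).

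Of the 8 genes, 5 reached 50 CPM in at least 1 library of each comparison of BAs, and Fads1, Fads2 and Elovl3 did not. Between sham and untreated BAs, 3 of the 5 (Scd1, Scd2 and Elovl5) were at least 2-fold lower, against 6.95% of 4847 genes compared, and 0 were 2-fold higher, against 7.22%. On the mean of logs, where a difference of 1 is not 2-fold, Elovl5 (-0.93) did not reach that difference and Elovl6 (-1.11) did. Between denervated and sham BAs, 2 of the 5 (Scd1 and Scd2) were at least 2-fold higher, against 7.57% of 4824 genes, and 0 lower, against 7.3%. On the mean of logs Scd1 alone passed a difference of 1, and Scd2 (0.83) did not. Thinning every nucleus to 500 UMIs gave Scd2 a log2 ratio of CPM of 2.66. Between denervated and untreated BAs, 0 of the 5 passed 2-fold in either direction, where 1.13% of 4528 genes were higher and 0.442% lower. On the mean of logs the difference of Elovl6 was -1.11, past 1 in size but not a fold of its level. The median log2 ratio of the 5 was -1.39, 0.80 and -0.44 in the 3 comparisons in that order, beside -0.01, 0.01 and -0.01 over all genes compared. The 3 comparisons share libraries and are not independent.

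**Figure D2:**
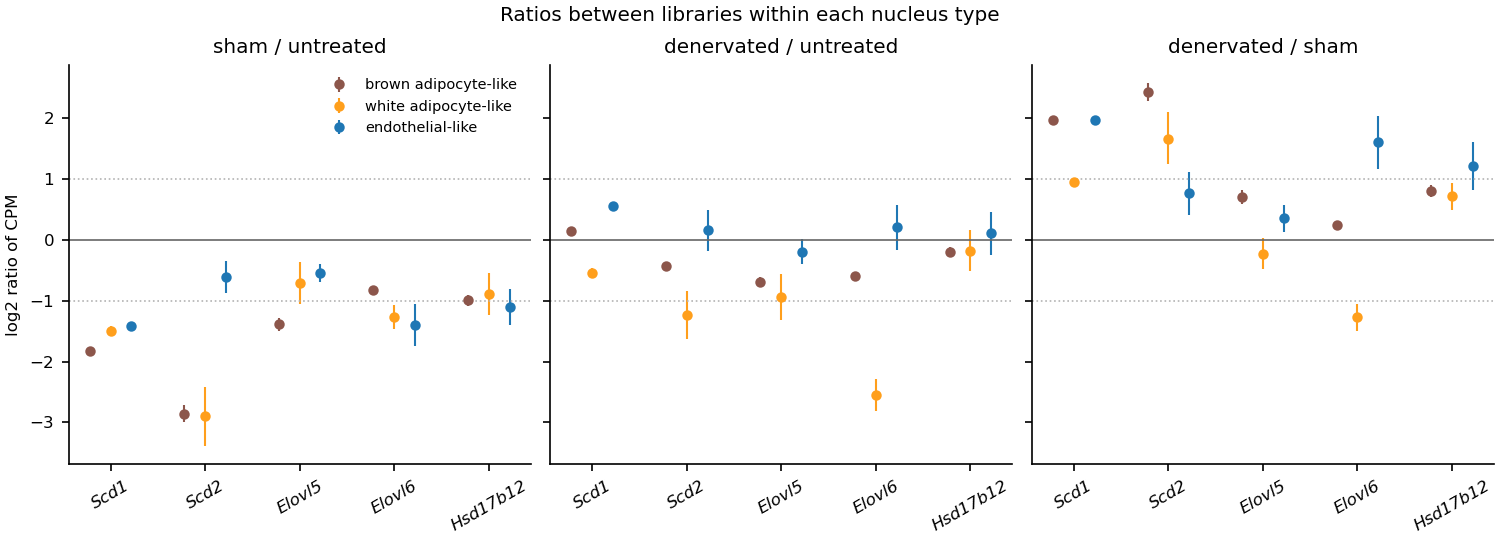
Log2 ratio of CPM (y axis) between 2 libraries for the 5 genes with substantial counts, in BAs, WAs and ECs (colours), with exact 95% counting intervals as bars and dotted lines at 2-fold. All points of the sham against untreated panel lie below 0, and in the denervated panels Elovl6 of WAs lies at -2.55 and -1.27, apart from Elovl6 of BAs.

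Elovl3 had few UMIs in every class, BAs included. Its counts were 100, 71 and 25 UMIs in untreated, sham and denervated BAs, or 11.5, 13.9 and 4.66 CPM with intervals of 9.40 to 14.1, 10.9 to 17.6 and 3.02 to 6.88. The denervated interval lay below both others, whereas those of untreated and sham overlapped, so Elovl3 was lowest in the library where Scd1 was highest. Denervated BAs were 2.48-fold below untreated (log2 -1.31, -2.00 to -0.67) and 2.99-fold below sham (log2 -1.58, -2.30 to -0.90). Elovl3 is the shortest of the 8 genes, with 3798 bases, and no WA of any library held an Elovl3 UMI, where 3 UMIs, the limit set here for a count of 0, would be 16.4, 2.61 and 3.74 CPM over the WAs of the untreated, sham and denervated libraries.

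The front-end desaturases were nearly absent from BAs and were found in other nuclei. Fads1, the delta-5 desaturase, stood at 10.5, 4.71 and 8.20 CPM in untreated, sham and denervated BAs and at 71.2, 40.0 and 31.2 in WAs. WAs were above BAs in all 3 libraries, with log2 ratios of BA over WA of -2.76 (-3.61 to -1.80), -3.09 (-3.86 to -2.35) and -1.93 (-2.67 to -1.16), on 13, 46 and 25 UMIs in WAs. ECs also exceeded BAs, with 32.4, 27.8 and 25.7 CPM. Fads2, the delta-6 desaturase, gave 4, 9 and 0 UMIs over all BAs of the 3 libraries, and 3 UMIs, the limit for a count of 0, would be 0.559 CPM in the denervated BAs (upper bound of the exact interval 0.688). PCs held 57.9 (38.5 to 83.8), 70.2 (54.6 to 88.8) and 31.8 (16.5 to 55.6) Fads2 CPM, on 28, 69 and 12 UMIs, and Fads2 was found in 3.16% of untreated, 2.79% of sham and 3.26% of denervated PCs at 500 UMIs each. On CPM, Fads2 of untreated and sham PCs had overlapping intervals. Denervated PCs lay below sham PCs (log2 -1.14, -2.16 to -0.24) but not clearly below untreated PCs (log2 -0.86, -1.97 to 0.16). The shares at 500 UMIs did not have that order and were highest in denervated PCs. Adipocyte markers in PCs had a median of 7.65% of their BA level in the untreated, 4.01% in the sham and 23.2% in the denervated library. The part of this in the Fads2 levels was not tested.

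The 131 Schwann-like nuclei of the sham library held 1130 Scd2 CPM (913 to 1383) and 493 Fads1 CPM (354 to 669), above BAs of the same library, on 94 and 41 UMIs. In the other two libraries Schwann markers fell in the clusters named fibroblast-like, of 56 and 116 nuclei, whose leading genes include Gpm6b, Kcna6 and collagen genes. Split after their values were seen, the 22 untreated nuclei of that cluster with more Schwann than fibroblast UMIs held 2035 Scd2 CPM (1447 to 2782), and the 30 with more fibroblast UMIs held 228 (83.6 to 496). The same split gave 853 (441 to 1489) and 422 (254 to 660.0) in the denervated library, with overlapping intervals. For Fads1 the split gave 626 (324 to 1094) and 228 (83.6 to 496) in the untreated and 355 (115 to 829) and 156 (62.6 to 321) in the denervated library, where the intervals overlap in both. The 49 fibroblast-like nuclei of the sham library held 0 Scd2 UMIs, where the limit of 3 UMIs is 78.6 CPM and the upper bound of the exact interval 96.7. Fads2 stood at 83.2 CPM in untreated fibroblast-like and 48.1 CPM in sham Schwann-like nuclei. Both rest on few UMIs and had intervals overlapping those of PCs.

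**Figure D3:**
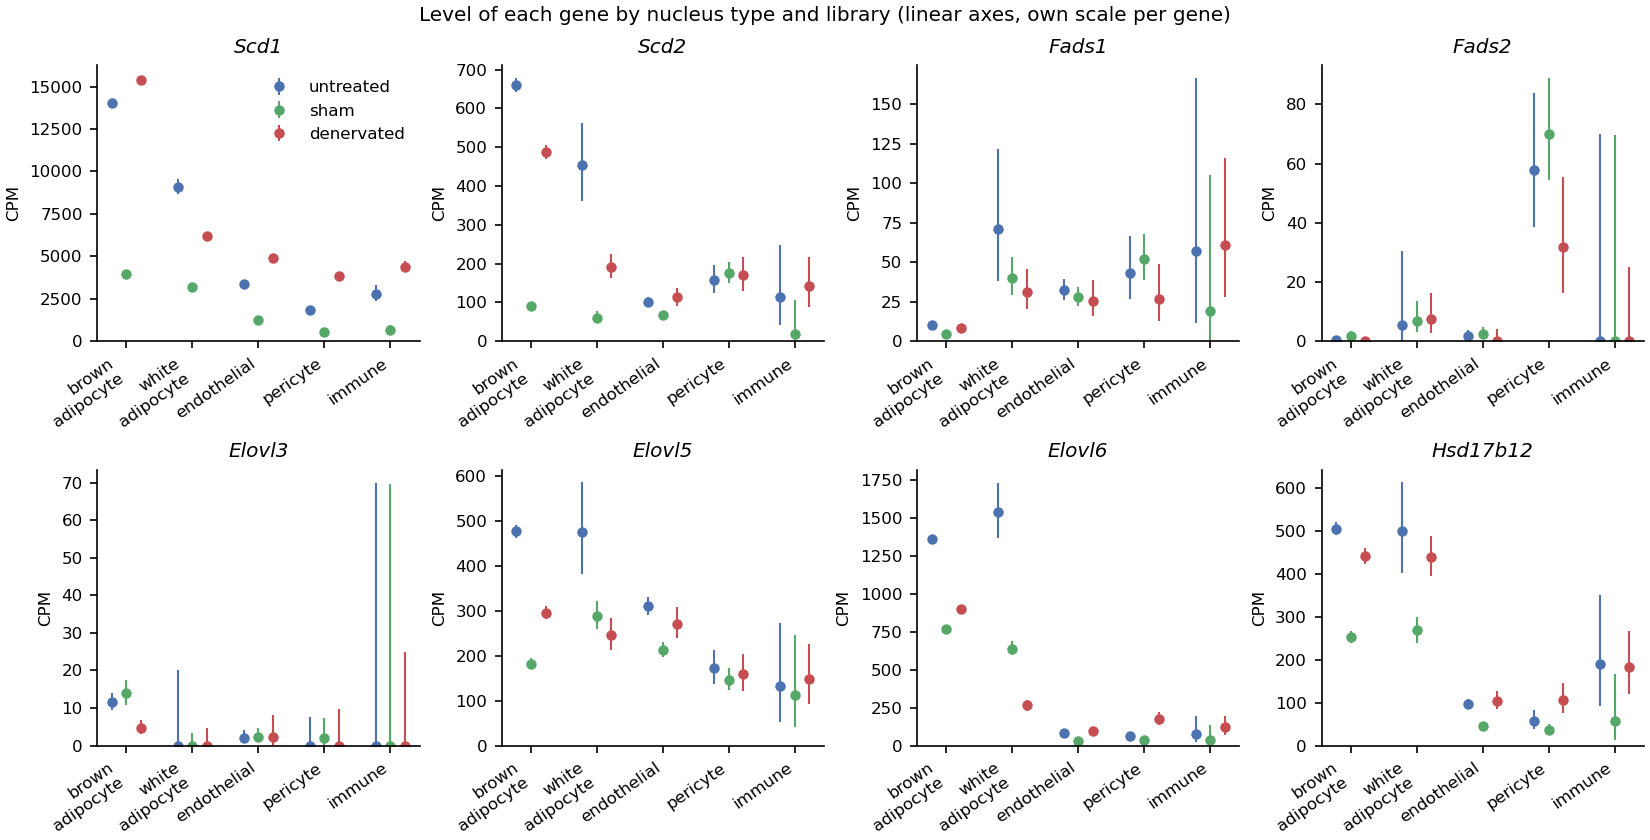
CPM (y axis, linear, own scale per gene) of each of the 8 genes in BAs, WAs, ECs, PCs and immune-like nuclei, with 1 point per library and exact 95% Poisson intervals as bars. Scd1, Scd2, Elovl6 and Hsd17b12 of the untreated library are higher in BAs and WAs than in the other classes shown. Of the classes shown, Fads2 stands out in PCs (57.9, 70.2 and 31.8), and the bars of Elovl3 in immune-like nuclei are wide because few nuclei were found.

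White against brown adipocytes differed by gene and by library. Scd1 was higher in BAs than in WAs of the same library in all 3 libraries, with WA levels of 9115, 3218 and 6213 CPM, log2 ratios of BA over WA of 0.62, 0.30 and 1.31 and intervals above 0. Scd2 was also higher in BAs, with log2 ratios of 0.54, 0.58 and 1.34. Elovl5 changed direction, with log2 ratios of 0.003, -0.67 (-0.85 to -0.48) and 0.26 (0.05 to 0.48). It was higher in WAs of the sham library and in BAs of the denervated library. Hsd17b12 did not separate the classes, since its log2 ratios of 0.02, -0.08 and 0.01 had intervals that include 0, the widest of them from -0.28 to 0.33. Elovl6 separated them most in the denervated library (log2 1.77, 1.57 to 1.98, against -0.18 and 0.27 in the untreated and sham libraries). Its WA level was 1545 CPM in the untreated (1370 to 1736), 640.3 in the sham (595 to 688) and 265 in the denervated library (230.2 to 303). Denervated WAs lay 5.84-fold below untreated WAs (log2 -2.55, -2.81 to -2.28) and 2.42-fold below sham WAs (log2 -1.27, -1.50 to -1.05), below both controls. In BAs the same 2 log2 ratios were -0.59 and 0.23. Scd2 of denervated WAs, at 192 CPM, lay between untreated (455) and sham (60.9). Centred on the median of all genes compared, the Elovl6 log2 ratios of WAs were -2.50 and -1.38. On the mean of logs, which is not a scale of folds, the differences were -1.52 and -0.46. The untreated WAs are 133 nuclei with 182549 UMIs, and the white clusters differed in stress genes, with heat shock lists of 9981 CPM in the untreated, 28711 and 4276 in the 2 sham and 12818 in the denervated white sub-clusters. Elovl6 stood at 659 and 539 CPM in the 2 sham white sub-clusters, and the part of the stress genes in the WA results was not tested.

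Within BAs, Scd1 also differed between sub-clusters of 1 library. In the denervated library the sub-cluster of 1846 nuclei led by Mid1ip1 and Cebpa held 20296 Scd1 CPM (20130 to 20463), the 1593 nuclei of another held 10762 (10590 to 10936), and the 1791 nuclei led by heat shock genes held 9028 (8854 to 9204). In the untreated library the main sub-cluster of 3466 nuclei held 14745 and the 646 nuclei led by heat shock genes 8845, with 11630 in the remaining 600. All 3 sham sub-clusters lay between 3474 and 4109, below every untreated and denervated one. Median depth differed as well, at 1484, 848 and 604 UMIs in these 3 denervated sub-clusters. In the untreated library it was 2051, 1140 and 848.5 UMIs for the sub-clusters at 14745, 8845 and 11630 CPM, so the shallowest was not the lowest in Scd1 there. The part of depth was not tested. Elovl6 varied less over the same sub-clusters, between 859 and 931 CPM in the denervated and between 1167 and 1473 in the untreated ones, leaving out a denervated sub-cluster of 26 nuclei. Leaving out the sub-clusters led by heat shock genes (646, 734 and 1791 nuclei) gave a Scd1 log2 ratio of 2.06 for denervated over sham and 0.24 for denervated over untreated BAs, with the same directions and the same side of 2-fold.

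**Figure D4:**
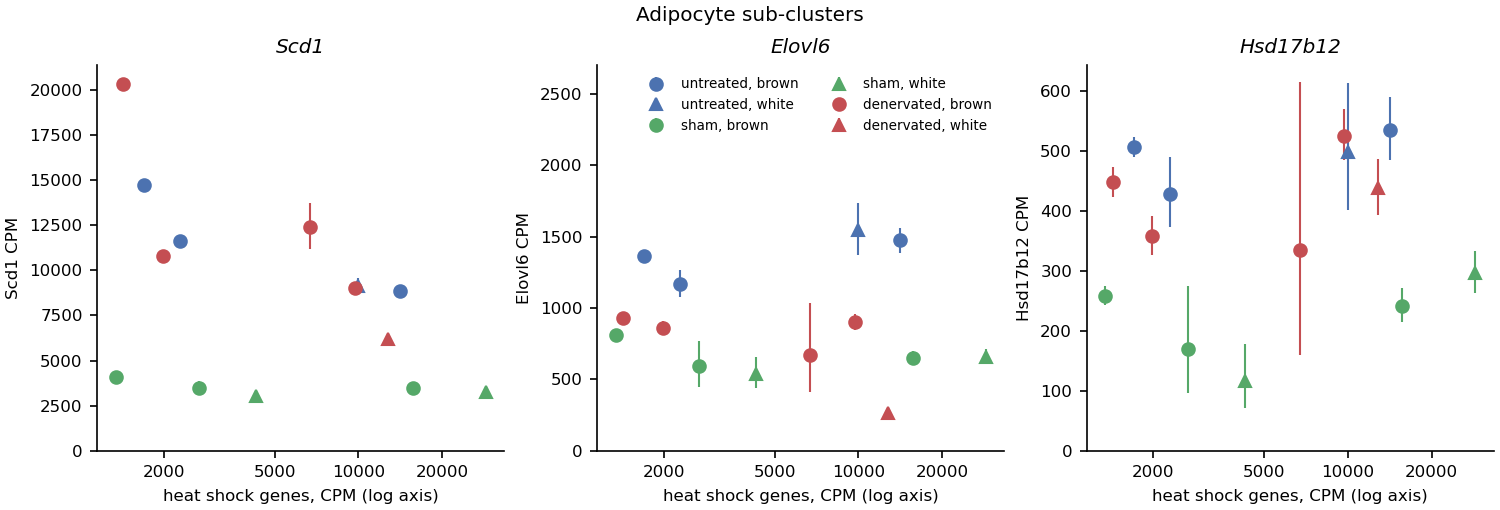
Scd1, Elovl6 and Hsd17b12 CPM (y axes, from 0) in each brown (circles) and white (triangles) adipocyte sub-cluster against its summed heat shock genes (x axis, CPM, log scale), coloured by library, with exact 95% Poisson bars. The sham sub-clusters lie between 3026 and 4109 for Scd1, and the denervated sub-cluster at 20296 is the highest.

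Against ECs of the same library, the adipocyte enzymes were higher in BAs. At least 2-fold higher were 4 of 5 compared genes in the untreated library (Scd1, Scd2, Elovl6 and Hsd17b12), against 26.7% of 5495 genes, 3 of 5 in the sham library (Scd1, Elovl6 and Hsd17b12), against 28.4%, and 4 of 5 in the denervated library, against 24.8%. On the mean of logs the line was a difference of 1, which is not 2-fold. The counts there were 2 in the sham library, without Hsd17b12 (0.77), and 3 in the denervated library, without Scd2 (0.97). Elovl6 had log2 ratios of CPM of 4.01, 4.58 and 3.22. The median of the 5 was 2.38, 1.65 and 2.08, beside 0.16, 0.16 and 0.05 over all genes compared. Elovl5 was the exception, with log2 ratios of 0.62, -0.23 and 0.12, of which the untreated interval lay above 0 (0.52 to 0.72), the sham interval below it (-0.38 to -0.08) and the denervated interval across it (-0.07 to 0.32).

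Adipocyte markers were counted in ECs too, so EC levels are given beside theirs. Scd1 in ECs was 23.8%, 31.8% and 31.8% of its level in BAs, and 8 adipocyte markers (such as Plin1, Adipoq and Pparg) reached 4.32% to 31.7%, 3.05% to 35.1% and 5.55% to 37.2% of theirs, with medians of 13.3%, 8.35% and 18.4%. Barcodes with fewer than 200 genes held 4346, 1999 and 5176 Scd1 CPM, above the 3346, 1258 and 4895 of ECs. Scd1 in ECs thus lay above the median marker and below the highest in each library. In the sham library Pparg (35.1%) was the only marker of the 8 above it, and the next highest was Lipe (19.0%). Whether ECs express Scd1 was not tested. The 8 markers also served to remove doublets, unlike the genes described here. This lowers the markers in ECs by an amount not tested, so a place above them may be partly built in for every gene of this paragraph. At 500 UMIs each, 77.1%, 40.2% and 86.7% of ECs had a Scd1 UMI, against 97.6%, 75.3% and 96.9% of BAs, and without thinning 99.6%, 92.4% and 98.0% of BAs did. These EC shares, and those of Elovl6 below, rest on the 2918 of 4611, 2563 of 5148 and 483 of 2088 ECs that reached 500 UMIs. Elovl5 differed from this, since its EC level was 65.2%, 117% and 91.8% of the BA level, with intervals above the highest marker in all 3 libraries, and 311, 213 and 272 CPM in ECs against 137, 108 and 164 in barcodes with fewer than 200 genes. Scd2 in sham ECs was 73.0% of the BA level (61.5 to 86.3), likewise above the highest marker, at 66.6 CPM against 32.7 in barcodes with fewer than 200 genes, and in sham PCs it was 193%. In untreated and denervated ECs Scd2 was 15.4% and 23.2% of the BA level, within the range of the markers. Elovl6 in ECs was 6.19%, 4.18% and 10.8% of the BA level, in the range of the markers. At 500 UMIs, Elovl6 was found in 45.1%, 28.5% and 32.4% of BAs and in 3.94%, 1.56% and 5.38% of ECs, of median depth 635, 499 and 348 UMIs before thinning.

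Genes around these enzymes were counted in lists. Of 7 genes of fatty acid synthesis upstream, 5 were at least 2-fold lower in sham than in untreated BAs (median log2 -1.89), against 6.95% of all genes compared, and 5 at least 2-fold higher in denervated than in sham BAs (median 1.61), against 7.57%, and 0 passed 2-fold between denervated and untreated (median -0.40), where 1.13% of all genes were higher and 0.442% lower. Acaca, the acetyl-CoA carboxylase that makes malonyl-CoA, stood at 6165, 2226 and 6787 CPM in untreated, sham and denervated BAs. Fasn, the fatty acid synthase, stood at 5587, 1512 and 4239. Acly, the citrate lyase, stood at 4097, 556 and 2365, with a log2 ratio of sham over untreated of -2.88 (-2.94 to -2.83). These 3 and Acss2 (3876, 689 and 3082) had their lowest level in the sham library. Acacb, the carboxylase isoform placed at mitochondria, had its highest level there, at 1352, 1822 and 1608. The ratio of Scd1 to Fasn UMIs was 2.51, 2.62 and 3.63 in the 3 libraries, with intervals of 2.49 to 2.54, 2.55 to 2.69 and 3.58 to 3.69.

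Among 3 of 5 acyl-CoA synthetases with enough counts, Acsl5 and Acsl3 were over 2-fold lower in sham than in untreated BAs, a comparison in which 6.95% of all genes were, and Acsl1 was at 756, 1482 and 708 CPM, highest in the sham library. Between denervated and sham BAs, Acsl5 and Acsl3 were over 2-fold higher, against 7.57% of all genes, and Acsl1 over 2-fold lower, against 7.3%. Of 7 compared lipogenic regulators, Srebf1, the sterol regulatory factor that drives lipogenic genes, was at 656, 204.5 and 678 and Insig1, its sterol-sensing retention partner, at 1061, 427 and 574, the 2 of the list that were 2-fold lower in sham than untreated, where 6.95% of all genes were. Between denervated and sham BAs, Srebf1 was 2-fold higher, against 7.57% of genes, and Nr1h2, the liver X receptor beta, 2-fold lower (log2 -1.19), against 7.3%, at 33.7, 61.2 and 26.8 CPM with its highest level in the sham library. Mlxipl, the carbohydrate response factor, was at 3598, 1866 and 2682, and Thrsp at 2015, 1264 and 1369. Of the other elongation cycle genes, Tecr (353, 283 and 254) and Hacd2 (285, 303 and 274) stayed under 2-fold in the 3 comparisons. Hacd3, 1 of the 3 compared genes of that list, was over 2-fold lower in sham than untreated (log2 -1.27), where 6.95% of all genes were. The 4 compared electron donors of desaturases (cytochrome b5 and its reductases) all stayed under 2-fold, with Cyb5b at 355, 202 and 287 and Cyb5a at 157, 81.3 and 148. None of 6 other desaturases reached 50 CPM in BAs, where Degs1, which acts on sphingolipids, stood at 24.4, 17.7 and 20.5 CPM and Fads3 at 20.7, 3.14 and 8.76.

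**Figure D5:**
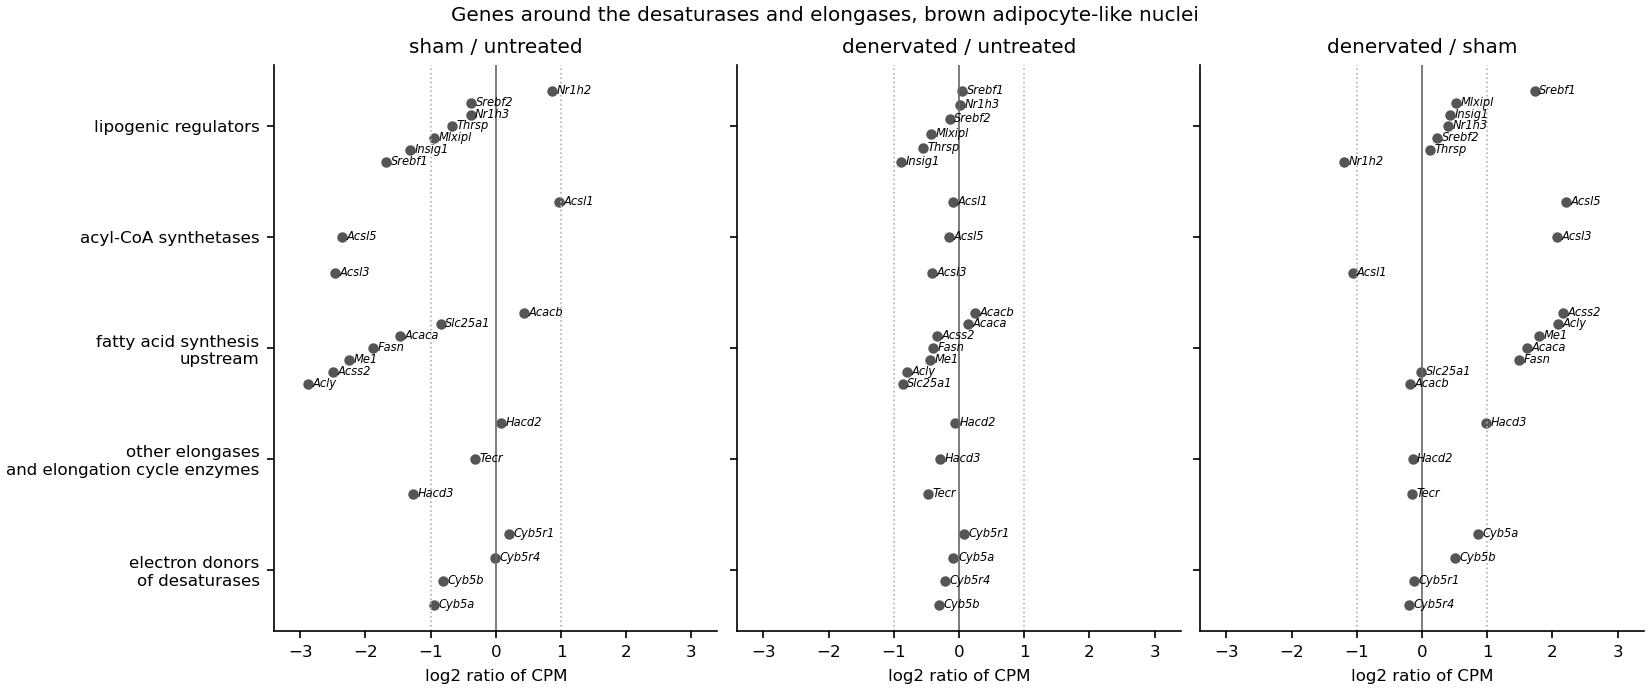
Log2 ratio of CPM in BAs (x axis) between 2 libraries for each compared gene of 5 lists (rows), with dotted lines at 2-fold. In the sham against untreated panel, 5 of the 7 genes of fatty acid synthesis lie beyond 2-fold to the left and Acacb lies right of 0, and in the denervated against untreated panel all 7 lie within 2-fold.

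Over 15 profiles, the 5 nucleus types that had at least 50 nuclei in every library times 3 libraries, the genes whose levels were most like those of Scd1 were Tkt, Fasn and Lctl (Pearson r 0.99, 0.97 and 0.94 of log2 levels). Those most like Elovl6 were Mpc1, H2-Q10 and Aacs (0.96 each), and those most like Hsd17b12 were Acaca, Pnpla3 and Gga2 (0.97 each). Scd2 was most like Cyp51, Rpia and Fgf1 (0.93, 0.90 and 0.88), and Elovl5 like Aplp2 and Rnf19a (0.91 and 0.89). Fads1 was most like Efr3a, Aff4 and Ankfy1 (0.88, 0.84 and 0.82). Fads2 was most like Emp2, Higd1b and Vtn (0.98, 0.97 and 0.97), of which Higd1b is among the genes that named the PCs, and Elovl3 was too low to compare. Profiles of 1 library share its depth and background, so these values only describe the order. From nucleus to nucleus within BAs at 500 UMIs, Scd1 and Fasn had r of 0.27, 0.21 and 0.37 in untreated, sham and denervated BAs, Scd1 and Scd2 0.17, 0.09 and 0.17, and Scd1 and Elovl6 0.05, 0.11 and 0.06, weak values in sparse counts that are given as a description.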

How the data were processed

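Single-nucleus RNA of 3 pooled libraries was measured. The deposited values are raw UMI counts per barcode and gene, which the authors made with the BD Rhapsody WTA pipeline (version 1.9 for nuclei, GRCm38 with GENCODE M19, per the file headers of the untreated and denervated tables; the sham table has no header). The submitters' processing notes name Seurat 4.0.6 and the build GRCh38, which the headers contradict. The run name in the header of the denervated table contains the letters KO, whereas the labels give genotype WT and denervation, which were followed. The authors' later removal of ambient RNA was not repeated.

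Filters kept barcodes of at least 200 detected genes whose mitochondrial share was at most 50%, barcodes carrying markers of 2 classes were removed as doublets, and each library was clustered (principal components, Louvain, resolution 0.5, igraph 0.11.9, scikit-learn 1.9.0) with the adipocyte clusters clustered again. The naming rule and second round were set after the clusters were seen, and rebuilt names may differ from those of the study. UMIs were summed per library and nucleus type and scaled to 1000000 (CPM). Ratios carry exact conditional binomial, levels exact Poisson and shares exact Clopper-Pearson intervals of 95%. A gene is called at 2-fold where 1 of both sides holds at least 50 CPM. A floor is 3 UMIs over the group. The functions were tested on simulated data. Named genes are the 8 genes, the 2 to 4 genes of each list with the highest level in untreated BAs, and for each of the 8 the 3 most alike (Pearson r of log2 of CPM plus 10, genes with at least 50 CPM in a profile). For Elovl5, 1 of these is not reported here. Acacb, Nr1h2 and the genes counted in the heat shock and immediate early lists were named outside this rule, after their values were seen. The genes and lists were chosen with earlier results of these data known. Sequences were aligned with Biopython 1.88. Python 3.11.15 and SciPy 1.17.1 were used. Alternatives were the filters, doublet removal, resolution, joint clustering, classes without clustering, totals, thinning and scale.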

Additional observations from a re-analysis of the deposited data

Results flagged for a closer look

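Elovl6 in denervated against sham nuclei was higher in BAs (log2 0.23, 0.17 to 0.29) and lower in WAs (log2 -1.27, -1.50 to -1.05). It was marked because the same comparison went opposite ways in 2 nucleus types with counting intervals on either side of 0, and with 1 library a group the difference was not tested. On the mean over nuclei of log2 counts per 10000 plus 1, the value in BAs was -0.0024 and that in WAs -0.46, so the opposite directions did not hold there.

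Scd1 in denervated against untreated nuclei was marked for the same reason, at log2 0.13 (0.12 to 0.15) in BAs and -0.55 (-0.63 to -0.47) in WAs, and this difference was not tested either. On the mean of logs the values were -0.16 and -0.65, both negative. The untreated side rests on 133 WAs.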

How the results depend on the processing

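The 9 counts of genes past 2-fold gave 132 values under the alternatives, of which 127 stayed within 1.5 times the main count. A line at 1.5-fold in place of 2-fold gave 2 genes lower in denervated than untreated BAs in place of 0, 4 higher in denervated than sham in place of 2, and 5 lower in sham than untreated in place of 3. On the mean over nuclei of log2 counts per 10000 plus 1, the line was a difference of 1 and not 2-fold. This mean of logs gave 1 gene lower in denervated than untreated BAs in place of 0. It gave 1 higher in denervated than sham BAs in place of 2. It kept 3 genes lower in sham than untreated BAs, but with Elovl6 (-1.11) in place of Elovl5 (-0.93), and it put Scd1 in denervated against untreated BAs at -0.16 in place of 0.13. The cause was not tested.

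Of 575 log2 ratios of single genes under the alternatives, 4 changed sign, none of a gene past 2-fold: besides Scd1, these were Elovl6 in denervated against sham BAs (-0.0024) and Elovl5 in BAs against ECs of the sham (0.17) and denervated (-0.04) libraries. The Scd1 log2 ratio ran from 1.80 to 2.06 for denervated over sham BAs, from -2.07 to -1.71 for sham over untreated, and from -0.16 to 0.24 for denervated over untreated. Scd2 ran from 0.83 to 2.66, from -3.03 to -1.54 and from -0.71 to -0.37 in the same order. Elovl6 of WAs ran from -2.68 to -1.52 for denervated over untreated and from -1.47 to -0.46 for denervated over sham, the smallest values again from the mean of logs. These ranges of WAs leave out classes by marker UMIs and, for the sham library, the names of the first round, which left fewer than 50 WAs. The following 4 alternatives were chosen after seeing the data: the names of the first round of clustering, WAs counted with BAs, the heat shock sub-clusters left out, and shared barcodes left out. All alternatives for WAs were also added then. No paired analysis was possible because each group is 1 library. Fads1, Fads2 and Elovl3 had few UMIs in BAs, and some classes were small, such as the 133 untreated WAs.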
